A study of Mus musculus with 10 samples.

Results

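The genes described here are the precursors of the cornified envelope and the enzymes, junction proteins and inhibitors that squamous cells make with it. They were chosen by name: every gene whose single platform symbol starts with Sprr or Lce, and 20 further genes of squamous differentiation (Lor, Ivl, Flg, Flg2, Hrnr, Rptn, Tgm1, Tgm3, Dsg1a, Dsc1, Cdsn, Klk5, Klk7, Casp14, Asprv1, Cst6, Stfa3, Alox12b, Aloxe3 and Calm4). The choice was made with earlier results of these data known. All 20 were on the array, with 12 Sprr and 18 Lce genes, so there were 50 members among 22180 named genes. After dim genes were left out, 32 members were among the 16635 genes tested. The array measured RNA from laser-captured nasal respiratory epithelium of mouse embryos at E16.5, with 1 array per embryo and 5 embryos of each genotype. The wild-type (WT) group held 4 females and 1 male, WT 3. The TKO embryos carried miR-34a-/-, miR-34b/c-/- and miR-449a/b/c-/- together, and the group held 2 females (TKO 1 and TKO 3) and 3 males (TKO 2, TKO 4 and TKO 5). The labels name no strain and no litter. The deletions are given as whole-embryo genotypes, with no Cre driver named.

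A cell entering cornification replaces its plasma membrane with a shell of crosslinked protein, the cornified envelope. Transglutaminases join loricrin, involucrin and the small proline-rich (Sprr) and late cornified envelope (Lce) proteins into that shell, lipoxygenases help to attach a lipid layer to its outside, and kallikreins later cut the junctions so that dead cells can be shed. The programme belongs to stratified squamous epithelia such as the epidermis, whereas the respiratory epithelium of the nose consists of multiciliated, secretory and basal cells. The precursor genes lie side by side in the epidermal differentiation complex: 36 members were on chromosome 3, the chromosome of Lor, and 14 elsewhere.

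The deleted microRNAs share the seed that sets their targets, and they are shown because they define the 2 groups. Of the family, 4 mature 5p sequences were in the RefSeq table (GRCm38.p6), and each is written with its seed, bases 2 to 8, in capitals.
mmu-miR-34a-5p: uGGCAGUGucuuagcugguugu
mmu-miR-34b-5p: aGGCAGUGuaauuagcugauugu
mmu-miR-449a-5p: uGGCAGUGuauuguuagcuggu
mmu-miR-449c-5p: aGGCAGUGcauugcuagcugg
All 4 carried GGCAGUG. As a check of the labels, Mir449c was at 6.80 to 7.56 in the WT and 3.16 to 4.39 in the TKO embryos, and Mir449a at 6.86 to 7.56 and 5.06 to 5.76, in log2 units. Neither overlapped between genotypes. Mir449b was at 12.13 to 12.23 and 11.67 to 12.08, without overlap but at a high value in both. Mir34a (3.34 to 3.68 against 3.09 to 3.75) and Mir34c (3.20 to 3.39 against 3.03 to 3.26) overlapped, and Mir34b lay at 5.61 to 5.98 against 5.40 to 5.57. In limma's fit without the filter on dim genes, the adjusted p was 0.633 for Mir34a, 0.166 for Mir34b and 0.318 for Mir34c, so these probe sets do not check the miR-34 deletions.

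The promoters of 8 precursors are shown because the array values of these genes of 1 complex moved in different ways, as the next paragraphs describe. They are RefSeq sequences of GRCm38.p6, all on the minus strand, written from the upstream end to the last base before the annotated start. In the first 4, capitals mark a run of 13 bases, ACTGTCTCACAGG, that begins at position -64 in Lce1a1 and -65 in the others, counted from the start.
Lce1a1, chr3:92648308-92648407: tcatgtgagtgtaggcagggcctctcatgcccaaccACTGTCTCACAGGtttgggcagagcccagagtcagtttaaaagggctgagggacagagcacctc
Lce1a2, chr3:92670316-92670415: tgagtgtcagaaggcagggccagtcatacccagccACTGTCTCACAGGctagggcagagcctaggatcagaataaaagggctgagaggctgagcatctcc
Lce1h, chr3:92765066-92765165: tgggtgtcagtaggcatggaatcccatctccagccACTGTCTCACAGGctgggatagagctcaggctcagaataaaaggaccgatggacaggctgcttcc
Lce1i, chr3:92778900-92778999: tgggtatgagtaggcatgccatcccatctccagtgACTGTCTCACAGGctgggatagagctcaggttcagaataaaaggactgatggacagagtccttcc
In the other 4, capitals mark each match to TGANTCA, a loose form of the AP-1 motif in which N is any base, and to the TATA motif TATAAA. The stretch marked for the loose form in Sprr1b is TGAATCA.
Lor, chr3:92083143-92083267: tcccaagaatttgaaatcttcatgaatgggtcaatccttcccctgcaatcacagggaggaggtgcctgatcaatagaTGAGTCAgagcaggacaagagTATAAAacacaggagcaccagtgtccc
Ivl, chr3:92573736-92573860: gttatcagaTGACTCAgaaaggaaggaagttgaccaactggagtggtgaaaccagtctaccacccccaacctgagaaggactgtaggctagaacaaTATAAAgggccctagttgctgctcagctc
Sprr1b, chr3:92438780-92438904: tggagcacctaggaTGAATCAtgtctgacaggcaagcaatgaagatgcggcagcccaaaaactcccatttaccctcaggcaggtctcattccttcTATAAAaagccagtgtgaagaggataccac
Sprr1a, chr3:92485882-92486031: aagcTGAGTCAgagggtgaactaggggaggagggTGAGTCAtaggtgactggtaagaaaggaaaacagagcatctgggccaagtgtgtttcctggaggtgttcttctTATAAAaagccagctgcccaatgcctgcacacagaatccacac

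A promoter was in the table for 43 of the 50 members, and motifs were searched on both strands in the 250 bases before each start. TGANTCA was in 13 of the 43 (30.2%), against 7.82% of all 27025 promoters. It was in 8 of 10 Sprr promoters and in 0 of 17 Lce promoters. TATAAA was in 18 of 43 (41.9%, against 14.3%). CACCC, the core of the motif that Krüppel-like factors bind, was in 24 of 43 (55.8%), close to the 54.5% of all promoters. The run of 13 bases was found by comparing 6 Lce1 promoters, so its presence in those 6 members is built in, and 7 of all 27025 promoters (0.0259%) held it. These matches describe letters in a window and were not tested for binding.

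Expression of the members varied far more between embryos of 1 genotype than expression of most genes did. Loricrin (Lor), the main envelope protein of the epidermis, spanned 4.58 log2 units over the 10 arrays, a 23.9-fold range. The median SD within a genotype was 0.569 log2 units over the 32 tested members and 0.152 over all tested genes. Of the 32, 25 lay above the 95th percentile of that SD (0.345) and 15 above the 99th (0.631). A range of at least 2 log2 units was seen in 15 members (46.9%, against 1.17% of all tested genes), and a range of at least 1 in 26 (81.3%, against 8.84%). With the sex-linked genes left out, 7 of the 30 genes with the largest SD were members: Stfa3, Hrnr, Lce3f, Calm4, Ivl, Lor and Dsc1. Of these, Lce3f came in by its family name and the others from the list of named genes. The members were chosen with earlier results of these data known, so these shares can in part reflect the choice. The median SD of the members was 0.721 in the WT and 0.484 in the TKO embryos, and the SD was the larger one in the WT for 19 of 32 members (59.4%, against 52.6% of all genes). That difference in spread was not tested. Because each array is a bulk capture, fewer cells of a type and less RNA per cell cannot be told apart.

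**Figure D1:**
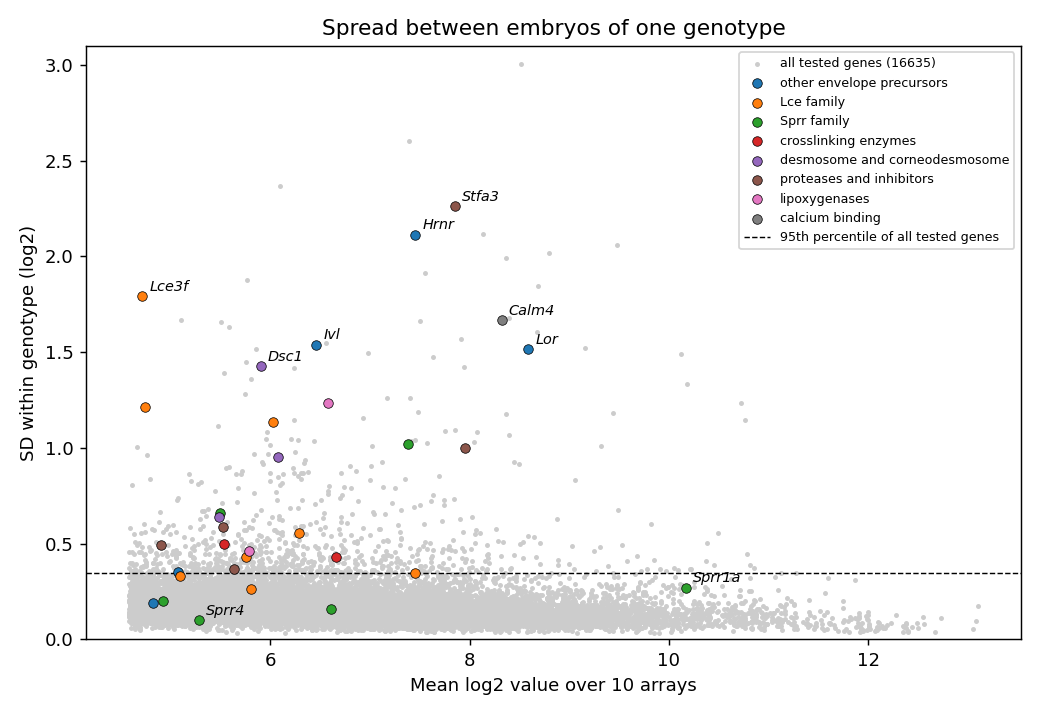
Each point is a gene, with its mean log2 value over 10 arrays on the horizontal axis and its SD within genotype (log2) on the vertical axis; grey points are all 16635 tested genes, coloured points are the 32 tested members by role, and the dashed line is the 95th percentile of all tested genes, 0.345. Of the members, 25 lie above the line, with Stfa3 and Hrnr highest, while Sprr1a and Sprr4 lie below it.

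The same few captures were at the ends of the range for most members. WT 4 was the highest array for 19 of the 32 tested members, while it was the highest for 8.30% of all genes. TKO 4 was the highest for 5 members (11.2% of all genes) and WT 2 for 4 (10.7%). TKO 2 was the lowest for 19 members, against 8.97% of all genes, and TKO 3 was the lowest for 6. Among the 25 members above the 95th percentile of SD, WT 4 lay above the gene's own median for 25, WT 3 for 24, and WT 2 and TKO 1 for 22 each. At the other end, WT 1 lay above it for 2, TKO 2 for 1 and TKO 3 for 0. RMA equalises the distributions of the arrays. The median deviation of all genes on an array stayed between -0.012 and 0.0084. High and low captures were found in both genotypes: WT 1 was among the low arrays and TKO 1 among the high ones, and WT 1 was below TKO 1 for 23 of these 25 members.

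**Figure D2:**
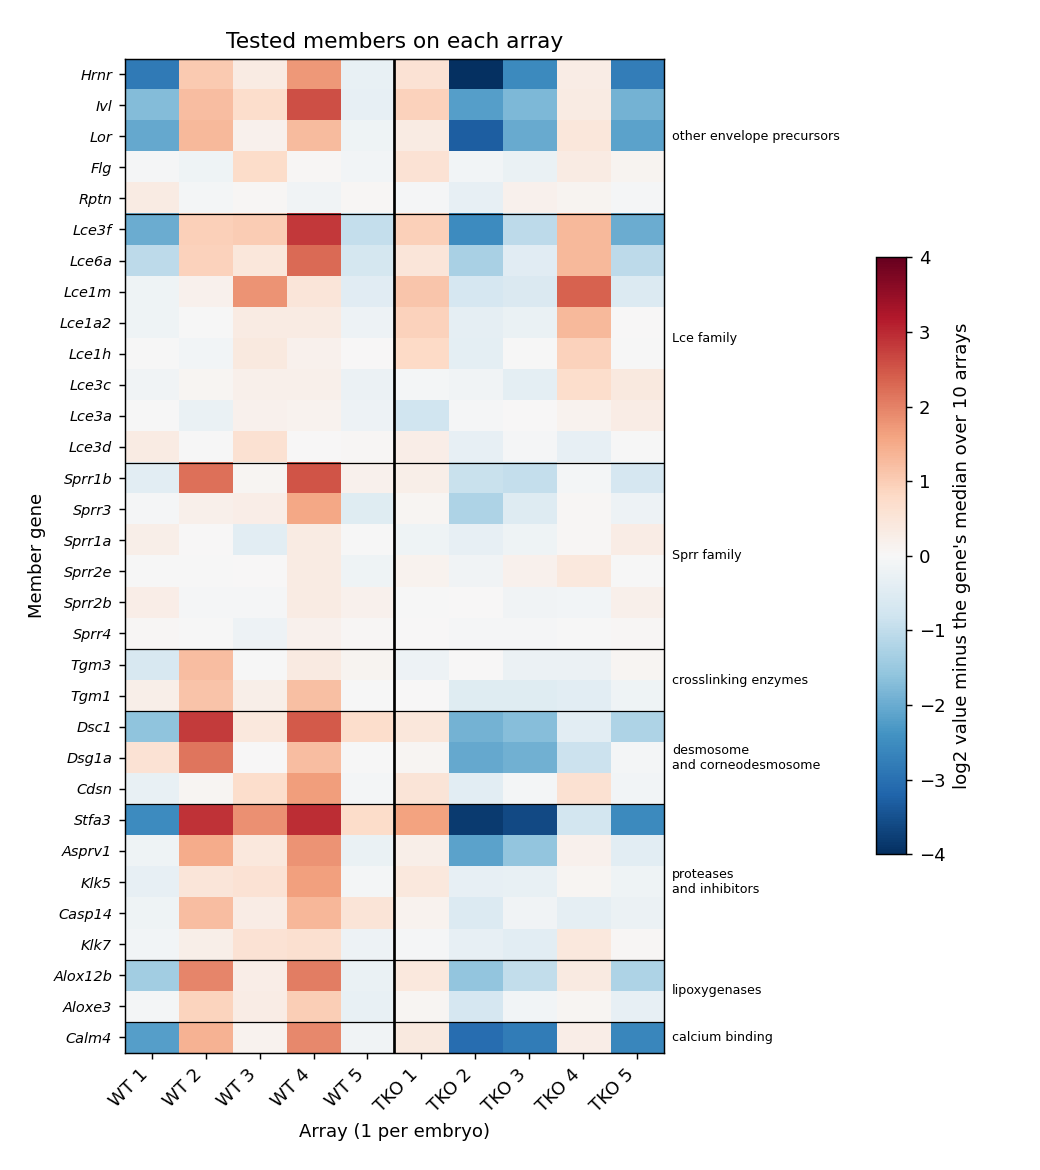
Each row is 1 of the 32 tested members, grouped by role, each column is 1 array, and the colour is the log2 value minus the gene's median over the 10 arrays; the vertical line separates WT from TKO. Rows of Hrnr, Ivl, Lor, Dsc1, Stfa3 and Calm4 are red on WT 2 and WT 4 and blue on WT 1, TKO 2, TKO 3 and TKO 5, while rows such as Rptn, Sprr2b and Sprr4 stay near 0.

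No member passed the test of TKO against WT. In limma's fit, which had sex in the model and Benjamini-Hochberg adjusted p-values over 16635 genes, 0 of 32 members were called at an adjusted p of 0.05, where 5.51% of all genes were called, 4.39% higher and 1.12% lower in TKO. The adjusted p of the members ran from 0.0929 to 0.926. At an unadjusted p under 0.05 there were 5 of 32 (15.6%), below the 20.9% of all genes. The arrays of the genotypes overlapped for every tested member, whereas they did not overlap for 7.6% of all genes.

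Most fitted changes were nonetheless below 0. They were negative for 28 of 32 members (87.5%, against 50.2% of all genes), with a median of -0.47 log2 units against -0.0005 for all genes. These members share the captures described above, so the 28 are not 28 separate observations. Markers of some other tissues were also lower: all 10 skeletal muscle markers were below 0, with a median of -0.94, and all 11 mesenchyme markers, with a median of -0.41. Endothelial and blood (4 of 4, median -0.38), leukocyte (6 of 7, -0.25) and melanocyte and Merkel cell markers (6 of 7, -0.22) were mostly below 0. Cartilage and bone had 5 of 8 below 0 (median -0.08), and olfactory markers only 1 of 9 (median 0.28). Their part in the shift of the members was not tested. The median standard error was 0.332, against 0.103 for all genes, and the 95% interval of 27 members included 0. Without WT 2 and WT 4, a choice made after the data were seen, the median was -0.17. Without TKO 2 and TKO 3 it was -0.28, without TKO 1 it was -0.74, and over all 50 members without the filter on dim genes it was -0.17. In the fit without the filter, 7 of the 18 members below it were below 0. Lce3f, Lce6a and Casp14, all below 0, passed the filter of 4.58 on their mean over both genotypes. Their TKO means, 4.20, 4.45 and 4.46, lay under it.

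**Figure D3:**
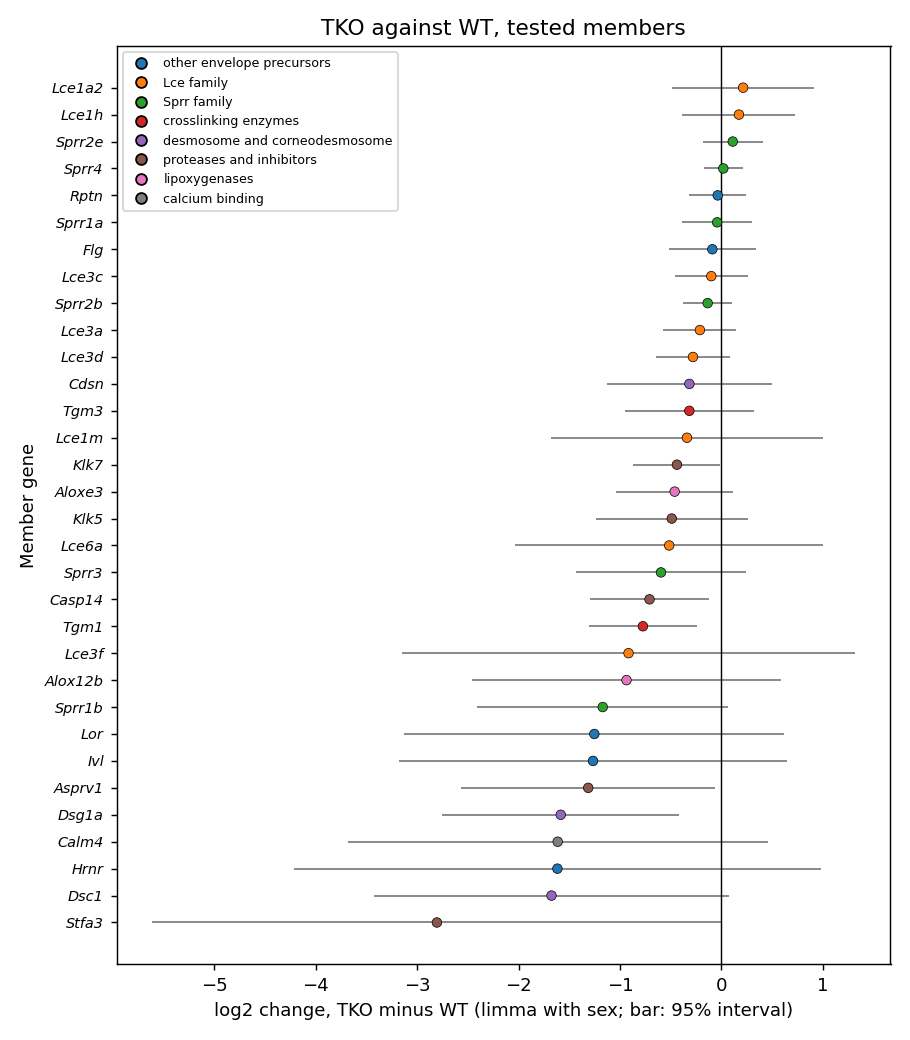
Points show the fitted log2 change, TKO minus WT with sex in the model, for the 32 tested members, coloured by role, and bars the 95% interval. The changes run from -2.80 for Stfa3 to 0.22 for Lce1a2, and 27 of the 32 bars cross 0.

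Among the envelope precursors outside the Sprr and Lce families, Hrnr, Lor and Ivl ranged over more than 4 log2 units, and Flg and Rptn over far less. The means of Flg and Rptn, 5.08 and 4.82, lay not far above the filter of 4.58, where a narrow range can also reflect low signal. Hornerin (Hrnr), a filaggrin-like repeat protein, was at 5.60, 9.48, 8.75, 10.16 and 8.13 on WT 1 to WT 5. It was at 9.01, 3.17, 5.88, 8.72 and 5.66 on TKO 1 to TKO 5. The lowest array, TKO 2, lay 127-fold under the highest, WT 4, and TKO 1 and TKO 4 lay among the WT values. Its change was -1.62 ± 1.19 (SE), with an adjusted p of 0.489, and it ran from -2.67 without TKO 1 to -0.90 without WT 3.

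Loricrin was at 7.15, 10.49, 9.39, 10.46 and 9.02 in WT 1 to WT 5. In TKO 1 to TKO 5 it was at 9.52, 5.91, 7.20, 9.66 and 7.06. WT 1 sat with the low TKO arrays, and TKO 1 and TKO 4 sat above WT 5. The WT mean was 9.30 ± 1.37 (SD, n = 5) and the TKO mean 7.87 ± 1.65 (SD, n = 5), and the fitted change was -1.25 ± 0.86 (SE, adjusted p = 0.4502). It was -1.97 without TKO 1 and -0.77 without TKO 3.

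Involucrin (Ivl), an early scaffold of the envelope, was at 4.94, 7.92, 7.38, 9.27 and 6.35 in the WT embryos, in order of number. In the TKO embryos it was at 7.59, 4.47, 4.89, 7.02 and 4.79. WT 4 stood highest, and WT 1 lay close to the 3 low TKO arrays (change -1.27 ± 0.88 SE, adjusted p = 0.456; -2.10 without TKO 1, -0.70 without TKO 3). Filaggrin (Flg), which bundles keratin filaments, ranged over 1.01 log2 units, with an SD just above the 95th percentile of all genes (0.352 against 0.345), a fitted change of -0.09 but a TKO mean of 5.09 and a WT mean of 5.06. Repetin (Rptn) ranged over 0.65 units, with a change of -0.04. Flg2 fell below the filter, with values of 3.58 to 4.33.

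The Lce family held 18 members, of which 8 were tested and 10 lay below the filter. Of the tested ones, 6 were below 0 and 2 above, from -0.92 for Lce3f to 0.22 for Lce1a2, and none was called. Lce3f was at 2.87, 5.81, 5.87, 7.68 and 3.92 in the WT embryos. In TKO 1 to TKO 5 the values were 5.80, 2.35, 3.82, 6.15 and 2.87. WT 1 and TKO 5 had the same low value, and WT 4 was 40.1-fold above TKO 2 (change -0.92 ± 1.02 SE, adjusted p = 0.672). With 1 array left out, the change ran from -1.65 (without TKO 1) to -0.26 (without WT 3).

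Lce6a had the same highest and lowest arrays, WT 4 and TKO 2, and was at 3.60, 5.57, 5.12, 6.93 and 3.96 in the WT embryos. The TKO values were 5.14, 3.35, 4.20, 5.95 and 3.62. TKO 4 was above every WT array but WT 4 (change -0.51 ± 0.70 SE, adjusted p = 0.736), and the change was -0.82 without TKO 1, -0.13 without WT 4 and 0.16 without both WT 2 and WT 4. Lce1m was at 5.51, 5.84, 7.46, 6.15 and 5.23 in the WT embryos. Its TKO values were 6.77, 5.01, 5.11, 8.04 and 5.14, with TKO 4 highest and WT 3 next. Its fitted change was -0.34 ± 0.61 (SE, adjusted p = 0.811), although the plain means were 6.04 in the WT and 6.02 in the TKO embryos, and it was 0.26 in females only and without WT 3. A second probe set of Lce1m gave means of 5.996 in the WT and 6.02 in the TKO embryos.

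Several Lce1 genes had a pattern that differed from that of Lor, and they were chosen for description after their values were seen. Lce1a1 was at 6.30 on WT 3, 7.66 on WT 4, 7.03 on TKO 1 and 7.37 on TKO 4, and between 2.60 and 3.01 on the other 6 arrays, with no array in between. WT 2, where Lor was at 10.49, was one of the 6 with a low Lce1a1 value, 3.01. Its mean, 4.55 in the WT and 4.503 in the TKO embryos, put it below the filter of 4.58. Lce1i was at 5.09 on TKO 4 and 4.11 on TKO 1, and at 2.39 to 3.02 on the others. Lce1a2 was highest on TKO 4 (7.39) and TKO 1 (7.03), against 5.74 to 6.44 elsewhere, and Lce1h was highest on the same arrays (6.50 and 6.40, against 5.19 to 5.97). The run of 13 bases shown above did not go with this pattern throughout. Lce1e carries it and was highest on TKO 4 (4.05), but it was at 3.40 on TKO 1 and 3.87 on WT 1. All these Lce1e values lay under the filter of 4.58, so the contrast is between dim values. Lce1m and Lce1l were highest on TKO 4 without the run. The pattern was not limited to Lce1 genes. Crct1, another gene of the complex, was at 7.02, 8.87, 7.22 and 7.36 on WT 3, WT 4, TKO 1 and TKO 4, and at 4.62 to 6.47 on the other 6 arrays. Kprp, also of the complex, was at 6.66, 6.42, 6.37 and 6.92 on the same arrays, against 5.27 to 6.16. The Lce1 genes are close paralogs, and signal from one paralog's RNA on another's probe set cannot be told apart here.

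Lce1b, Lce1f and Lce1l, below the filter, also had their highest values on TKO 1 or TKO 4: 5.37 for Lce1b on TKO 1, 6.01 for Lce1f on TKO 4 and 5.44 for Lce1l on TKO 4. Lce3a, Lce3c and Lce3d varied less than Lce3f. They ranged over 1.10, 1.11 and 0.94 log2 units, with changes of -0.21, -0.10 and -0.28. The other 5 Lce members (Lce1e, Lce1g, Lce1k, Lce3b and Lce3e) lay below the filter with ranges of 0.47 to 0.96 log2 units.

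The Sprr genes encode small crosslinking proteins that make the envelope flexible. Of the tested ones, only Sprr1b and Sprr3 ranged over more than 1 log2 unit (3.47 and 2.78). Likeness to Lor was not computed. Of 12 members, 6 were tested, with changes from -1.17 for Sprr1b to 0.11 for Sprr2e and a median SD of 0.235. Sprr1b and Sprr1a, nearby genes of the complex chosen for description after their values were seen, behaved differently. Sprr1b was at 9.35 on WT 2 and 9.68 on WT 4, and between 6.21 and 7.40 on the other 8 arrays (change -1.17 ± 0.57 SE, adjusted p = 0.266). Sprr1a stayed between 9.76 and 10.51 on all 10 arrays, with a change of -0.04 and a 95% interval of -0.39 to 0.30. Both promoters held TGANTCA and TATAAA.

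Sprr3, made in oral and oesophageal squamous epithelium, was at 7.07 on WT 4 and 4.29 on TKO 2, with the other 8 arrays at 5.01 to 5.80 (change -0.59, adjusted p = 0.417). Sprr4 was the steadiest tested member, with a range of 0.37 log2 units and a change of 0.02. Sprr2b and Sprr2e ranged over 0.49 and 0.59 units. The means of Sprr4 and Sprr2e, 5.28 and 4.92, also lay not far above the filter. Of the 6 Sprr genes below the filter, Sprr2d had the widest range, 1.85 units, with 5.71 on TKO 1. The other 5 (Sprr2f, Sprr2g, Sprr2h, Sprr2j-ps and Sprr2k) ranged over 0.50 to 0.96 units. RefSeq annotates Sprr2g and Sprr2j-ps as pseudogenes.

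Of the crosslinking enzymes, transglutaminase 1 (Tgm1), the membrane-bound enzyme that starts envelope assembly, had the smallest p of all members. It was at 6.78, 7.67, 6.77, 7.73 and 6.52 in the WT embryos. In the TKO embryos it was at 6.57, 6.06, 6.04, 6.11 and 6.36. WT 2 and WT 4 stood about 1 log2 unit above the other WT arrays, and TKO 1 lay just above WT 5, so the genotypes overlapped by that pair. The mean was 7.10 ± 0.56 (SD, n = 5) in the WT and 6.23 ± 0.23 (SD, n = 5) in the TKO embryos, and the change of -0.77 ± 0.25 (SE) had an adjusted p of 0.0929. It passed the threshold without sex in the model (-0.87, adjusted p = 0.0405) and without WT 5 (-0.90, adjusted p = 0.0255), and over the 24 alternatives the change lay between -0.90 and -0.45 and the adjusted p between 0.0255 and 0.445. Tgm3, which crosslinks precursors in the cytoplasm, was highest on WT 2 (6.73) and lowest on WT 1 (4.85), with a change of -0.32 (adjusted p = 0.597).

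The junction proteins Dsg1a and Dsc1, desmosomal cadherins of the upper squamous layers, had 2 of the larger changes. Dsg1a was at 6.74, 8.32, 6.18, 7.40 and 6.15 in the WT embryos. On the TKO arrays it was at 6.24, 4.12, 4.26, 5.31 and 6.08. TKO 1 lay above WT 3 and WT 5, and TKO 2 and TKO 3 lay below all others. The change was -1.58 ± 0.54 (SE, adjusted p = 0.113), with a 95% interval of -2.75 to -0.41 before adjustment. Without TKO 3 it was -0.96 (adjusted p = 0.433), and over the 10 fits that leave out 1 array the adjusted p ran from 0.0664 to 0.433.

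Dsc1 was at 4.30, 8.71, 6.34, 8.35 and 6.60 in the WT embryos. Its TKO values were 6.36, 4.02, 4.20, 5.47 and 4.68. WT 1 fell between TKO 3 and TKO 5, while WT 3 lay level with TKO 1 (change -1.67 ± 0.80 SE, adjusted p = 0.260; -1.11 without TKO 3). Cdsn, corneodesmosin, the glue of the junctions between dead cells, was highest on WT 4 (6.89) and otherwise between 4.80 and 5.91, with a change of -0.31 (adjusted p = 0.692).

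The proteases and inhibitors that mature and shed the cornified layer included Stfa3, the tested member with the largest SD within genotype (2.26). Hrnr had a wider range (6.99 against 6.78 log2 units), and Lce1a1, below the filter, a larger SD (2.37). Stfa3, a stefin that inhibits cysteine proteases, was at 5.66, 11.05, 10.00, 11.13 and 8.91 in the WT embryos. In the TKO embryos it was at 9.79, 4.36, 4.55, 7.43 and 5.63. WT 1 lay level with TKO 5, and TKO 1 lay among the high WT arrays, with 109.6-fold between WT 4 and TKO 2. The mean was 9.35 ± 2.25 (SD, n = 5) in the WT and 6.35 ± 2.28 (SD, n = 5) in the TKO embryos. The change of -2.80 ± 1.29 (SE) had an adjusted p of 0.2397, and it ran from -4.43 to -1.25 over the 24 alternatives, with -4.43 without TKO 1 and -1.72 without TKO 3.

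**Figure D4:**
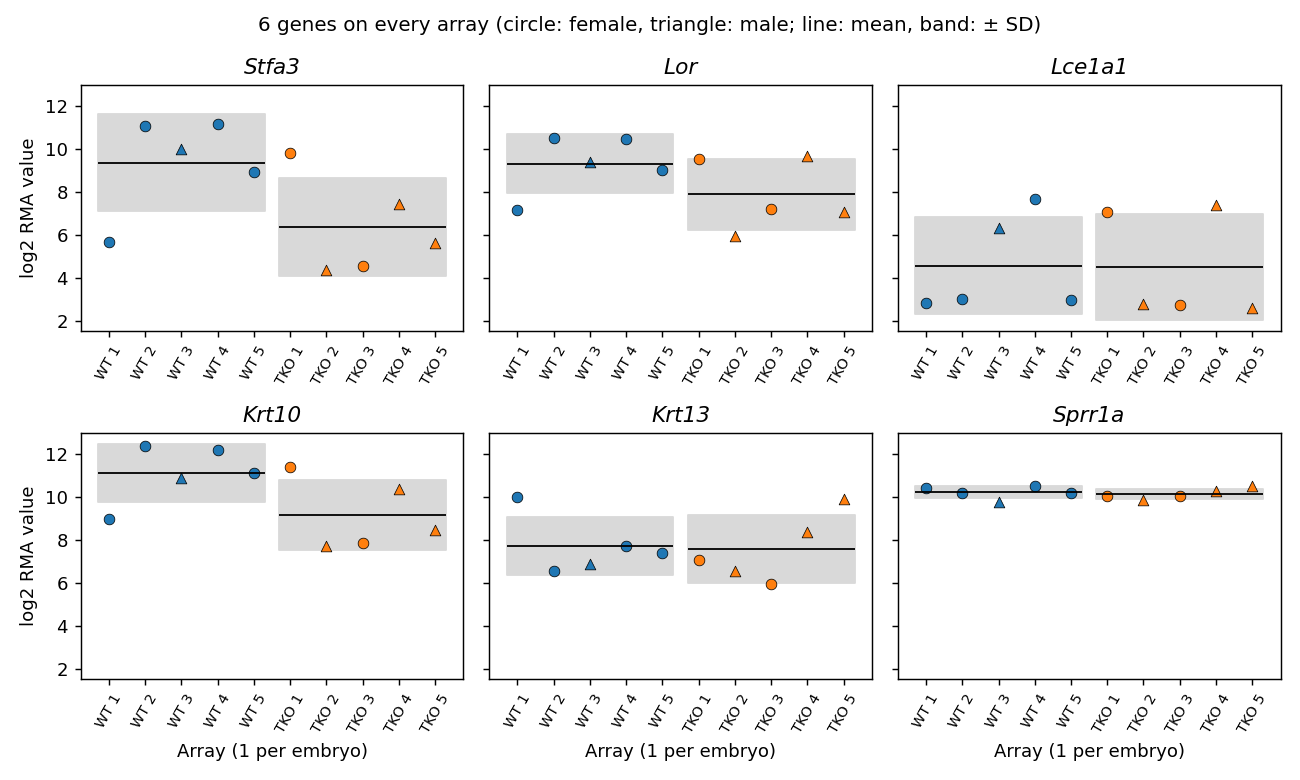
Log2 RMA values of 6 genes on each of the 10 arrays (circles female, triangles male, line the genotype mean, band ± SD); heights of different genes are not comparable. Stfa3, Lor and Krt10 are low on WT 1, TKO 2, TKO 3 and TKO 5, Lce1a1 is high on 4 arrays only, Krt13 is highest on WT 1 and TKO 5, and Sprr1a stays between 9.76 and 10.51.

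Casp14, a caspase that takes part in filaggrin breakdown, was at 4.504, 5.93, 4.98, 6.02 and 5.21 in the WT embryos. On the TKO arrays it was at 4.84, 4.15, 4.53, 4.33 and 4.46. Only WT 1 lay among the TKO values, and without WT 1 the change was -0.89 (adjusted p = 0.0231), against -0.71 ± 0.27 (SE, adjusted p = 0.152) with all arrays. Over 23 alternatives its adjusted p ran from 0.0231 to 0.514. Asprv1, a protease that processes profilaggrin, was at 7.84, 9.47, 8.41, 9.79 and 7.72 in the WT embryos. Its TKO values were 8.23, 5.87, 6.44, 8.17 and 7.59. TKO 1 and TKO 4 lay above WT 1 and WT 5 (change -1.31 ± 0.57 SE, adjusted p = 0.215; -0.83 without TKO 3).

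Klk7, a kallikrein that cuts corneodesmosomes, was at 5.44, 5.80, 6.14, 6.20 and 5.34 in the WT embryos. Its TKO values were 5.51, 5.24, 5.12, 5.97 and 5.60. The groups overlapped over most of their range (change -0.44 ± 0.20 SE, adjusted p = 0.229). In limma's fit without sex in the model the change was -0.30 (adjusted p = 0.426). Klk5, which activates Klk7, was highest on WT 4 (6.97) and otherwise between 4.98 and 5.89, with a change of -0.49 (adjusted p = 0.463). Cst6, cystatin M/E, an inhibitor of cathepsins and legumain, lay below the filter, with 3.76 on TKO 2 and 5.71 on WT 4.

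Both lipoxygenases of the lipid envelope followed the same captures. Alox12b, which oxidises the linoleate of epidermal ceramides, was at 5.21, 8.57, 6.88, 8.65 and 6.35 in the WT embryos. In the TKO embryos it was at 7.05, 5.04, 5.65, 6.97 and 5.37. TKO 1 and TKO 4 lay above WT 3 and WT 5 (change -0.93 ± 0.70 SE, adjusted p = 0.496; -0.60 without TKO 3). Aloxe3, the next enzyme of the pathway, ranged from 5.02 on TKO 2 to 6.69 on WT 4, with a change of -0.46 (adjusted p = 0.356).

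Calm4, a calmodulin-like calcium sensor of the skin, was at 6.78, 10.38, 9.11, 10.92 and 8.86 in the WT embryos. The TKO values were 9.39, 5.95, 6.20, 9.25 and 6.38. The values fell into a high and a low set in each genotype, with WT 1 in the low set and TKO 1 and TKO 4 in the high one. Its change was -1.61 ± 0.95 (SE, adjusted p = 0.366), and it ran from -2.49 without TKO 1 to -0.85 without TKO 3.

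None of the 18 members below the filter was called when limma was fitted without the filter. The smallest adjusted p was 0.382, none had an unadjusted p under 0.05, and 7 were below 0. That fit called 779 of all 22180 genes, so having none called among 18 does not set these members apart from other genes. Of these members, 10 were under 4.58 on every array, and 7 ranged over at least 1 log2 unit. The deposited values carry no detection call, so a low value here does not say that a gene was off.

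Some keratins of squamous cells had the same high and low captures as Lor, and others did not. Of 15 tested keratins, 0 were called by limma (1 at an unadjusted p under 0.05), 13 were below 0 and the median change was -0.28. A range of at least 2 log2 units was seen in 6 keratins, described after their values were seen, while the other 9 ranged over 0.37 to 1.22 units. Krt10, the keratin of suprabasal epidermis, was at 12.35 on WT 2 and 12.15 on WT 4, and at 7.71 on TKO 2 and 7.86 on TKO 3 (change -1.71, adjusted p = 0.27). Its partner Krt1 (-1.74, adjusted p = 0.27) and Krt77 (-1.59, adjusted p = 0.28) had the same high and low arrays, while Krt80, with the smallest p of the list, changed by -0.43 (adjusted p = 0.11). Krt13, a keratin of non-cornifying squamous epithelium, was instead at 9.97 on WT 1 and 9.90 on TKO 5, and between 5.94 and 8.37 on the others. Krt6a, the keratin of stressed and appendage epithelium, was likewise highest on WT 1 (11.26) and TKO 5 (11.20). So WT 1 and TKO 5, among the low arrays for Lor, were the high ones for Krt13 and Krt6a. Krt17, the last of the 6, was highest on TKO 5 (11.08) and WT 1 (10.86).

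Genes of the neighbouring barrier programmes were read from the same fit. Secreted and surface proteins of the suprabasal layers had 0 of 19 called (6 at an unadjusted p under 0.05), 18 below 0 and a median of -0.66. Sfn, the epithelial 14-3-3 protein, had the smallest p (-0.43, adjusted p = 0.06). Lipid barrier genes had 0 of 16 called (3 unadjusted), 14 below 0 and a median of -0.35, with Lipm at -1.21 (adjusted p = 0.08). Plakins and desmosomal genes had 1 of 13 called: Pkp2, a plakophilin also made in simple epithelia, rose by 0.30 (adjusted p = 0.042). The median of that list was -0.31, with Ppl, periplakin, at -0.74 (adjusted p = 0.12).

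Among 19 further proteases, inhibitors and transglutaminases, 1 fell: Klk12 by 0.36 on the log2 scale (adjusted p = 0.041), and the median was -0.20. Stfa1, another stefin, was highest on WT 2 (10.37), with 10.29 on WT 4, and lowest on TKO 2 (4.96), with a change of -1.75 (adjusted p = 0.28). Of 10 other tested genes of the epidermal differentiation complex, S100a3 rose by 0.54 (adjusted p = 0.011) and 9 did not pass, with a median of -0.10. Of 21 regulators of squamous differentiation, 0 were called (4 unadjusted) and the median was -0.13. Hopx, an epidermal cofactor, had the smallest p of these (-0.63, adjusted p = 0.051), and the master regulators Klf4 (-0.26, adjusted p = 0.62) and Trp63 (-0.21, adjusted p = 0.35) did not pass.

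Of the markers of the labelled epithelium, the mean scores of general epithelial, multiciliated and basal genes varied little between arrays and that of secretory genes more. Summed as the mean deviation from each gene's average, 12 general epithelial genes stayed between -0.10 and 0.13 over the 10 arrays, the 10 multiciliated markers between -0.18 and 0.16, with Foxj1 at 10.74 to 11.13, and the 10 basal markers between -0.16 and 0.18. The basal score was highest on WT 1 (0.18) and TKO 5 (0.14). Among single basal genes, Krt14 and Krt15 were highest on the same arrays and ranged over 1.10 and 1.09 log2 units. The SD of Krt14 within genotype, 0.371, lay above the 95th percentile of all tested genes (0.345). The score of the 11 secretory markers ran from -0.56 on WT 2 to 0.41 on TKO 1. It was -0.25 on WT 4 and -0.28 on WT 5. WT 2 and WT 4, both low for this score, were among the 2 highest arrays for 14 and 20 of the 25 members above the 95th percentile of SD. The arrays went together elsewhere: TKO 1 and TKO 4 were highest for the secretory score (0.41 and 0.32) and above 0 for the members (0.35 and 0.29). Over the 32 tested members the same score ran from -0.54 on WT 1 to 1.19 on WT 4 in the WT, and from -1.12 on TKO 2 to 0.35 on TKO 1 in the TKO embryos. Of the multiciliated markers 3 of 10 rose (Ccno, Deup1 and Mcidas), of the basal markers 1 of 10 fell (Ngfr), and of 11 secretory markers none was called (6 at an unadjusted p under 0.05). Among the markers of other tissues that a capture can hold, skeletal muscle had 2 of 10 lower (Tnni2 and Tnnt3; 9 at an unadjusted p under 0.05), with scores of -0.56 on WT 2 to 1.14 on WT 3 and -0.70 to 0.31 in the TKO embryos. Mesenchyme had 1 of 11 lower (Col3a1; 6 unadjusted), with scores of -0.53 to 0.47 in the WT and -0.88 to 0.59 in the TKO embryos, and none was called of 8 cartilage and bone, 9 olfactory, 4 endothelial and blood, 7 leukocyte or 7 melanocyte and Merkel cell markers (0, 1, 1, 0 and 2 at an unadjusted p under 0.05). The olfactory score had the widest range, from -0.86 to 1.51 in the WT and from -0.95 to 1.19 in the TKO embryos. WT 2 and WT 4, both high for the members, lay at opposite ends of the WT range for mesenchyme (-0.53 and 0.47) and for cartilage and bone (-0.68 and 0.61). The part of any of these tissues in the spread of the members was not tested.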

How the data were processed

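RNA from the nasal respiratory epithelium of 10 embryos was measured, 1 array each; per the labels' protocols, embryos were formalin-fixed and the tissue was laser-captured from paraffin sections. The deposited values are log2 intensities, made by the authors with RMA in the Affymetrix Expression Console per the submitters' processing notes. A gene (22180 in all) was read from its single-symbol probe set of highest mean, and genes with a mean under the 25th percentile (4.58) were left out. TKO was set against WT in R 4.3.3 with limma 3.58.1 (labelled sex in the model, eBayes with trend, two-sided, Benjamini-Hochberg over 16635 genes, threshold 0.05), and the code was tested on simulated data. The labels number the embryos and say nothing of litters, so p-values measure the spread between these embryos; 5 arrays a genotype limit the precision. Every array is given for the 10 members with the largest SD and the 5 with the smallest p; up to 4 genes come from each other list by smallest p. Others named were chosen after their values were seen. Members and lists were chosen with earlier results of these data known. Arrays were regrouped and values rescaled in 24 alternatives.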

Additional observations from a re-analysis of the deposited data

How the results depend on the processing

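In 21 of 24 alternatives no member was called in either direction. Lower members numbered 1 with no sex in the model (Tgm1) and 0 to 1 when each array was left out in turn (Casp14 without WT 1, Tgm1 without WT 5). The median change of the members was -1.17 with the filter at the 50th percentile, which left 15 of them. All genes changed numbered 56 in females only, 573 without WT 2 and WT 4, 128 without TKO 2 and TKO 3, and 210 (without WT 3) to 1284 (without WT 5) with 1 array left out, including 552 without TKO 1 and 307 without TKO 3; the fit without WT 3 and the fit in females only take the genotype effect from the same arrays. Among the members given on every array, signs turned for Lce6a without WT 2 and WT 4 (0.16) and for Lce1m in females only (0.26), without TKO 2 and TKO 3 (0.20) and with 1 array left out (-0.97 to 0.26). Signs of the other members were not followed 1 by 1. Members below 0 numbered 28 of 32 with all arrays, 24 without WT 2 and WT 4, and 25 in females only. The cause was not tested. With the replicate number of the labels as a replicate block, 0 members and 1053 genes were called, with a median change of -0.44; same-numbered arrays correlated at -0.13 to 0.38 and below 0 for 4 of 5 numbers, so the numbers were not taken as pairs. The median SD within genotype was 0.553 to 0.570 under the 3 alternatives tried for it. Without scanner files, signal over background is unknown for the dim members.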

Other observations

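Genes with the same highest and lowest arrays as most members lay outside the squamous lists too. They were in a stretch of chromosome 16 around Krtap13, a hair keratin-associated protein gene, noticed after the values were seen. Krtap13 was at 7.22, 10.30, 10.01, 11.15 and 9.13 in the WT embryos. In the TKO embryos it was at 9.94, 4.28, 8.14, 10.41 and 7.46. WT 4 was highest and TKO 2 lowest, as for most members, and the change was -1.21 (adjusted p = 0.602). The neighbouring 2310034C09Rik and the annotated pseudogene Gm20741 had their extremes on the same arrays, at 11.56 and 4.76 and at 11.25 and 4.92. The gene 2310057N15Rik, in the same stretch, followed the Lce1a1 pattern instead: it was at 7.70 on WT 3, 9.50 on WT 4, 8.34 on TKO 1 and 8.95 on TKO 4, and between 3.85 and 4.85 on the other arrays. Krtap13-1, Krtap26-1 and Krtap27-1, also neighbours, ranged over 1.68, 1.15 and 0.67 log2 units, and none of the 3 was highest on WT 4. Loci here can overlap, and which transcript a probe set reads was not tested.

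Probe sets that name several genes of the Sprr and Lce families at once were not counted as members, and 7 such probe sets were on the array. A pair of probe sets for Sprr2a1, Sprr2a2 and Sprr2a3, with identical values, was highest on WT 5 (9.35), TKO 5 (9.01) and WT 1 (8.96), and between 7.38 and 8.46 on the other arrays. Those 3 arrays were not among the high ones for Lor. The probe set for Lce1d and Lce1k was at 6.65 on TKO 4 and 6.01 on TKO 1, and between 3.94 and 5.10 on the others, the arrays on which Lce1i was also highest. The probe set for Lce1c and Lce1k was at 5.67 on TKO 4 and between 3.97 and 4.49 on the others.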
